A study of Mus musculus with 8 samples.

Results

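Loops that join the promoters of protein-coding genes were examined in H3K27ac HiChIP data from mouse embryonic stem cells. The members are loops between 2 different anchors whose midpoints lie less than 500 kb apart and which both overlap an annotated transcription start site of a protein-coding gene. The rule uses position and annotation only, with coordinates on GRCm38 and starts from GENCODE release M21, and it selected 30920 of 415681 loops (7.44%). HiChIP ligates neighbouring DNA ends in fixed nuclei and then pulls down the fragments that carry a chosen protein mark. The mark is acetylated lysine 27 on histone H3, a feature of active promoters and enhancers. One count is 1 read pair that connects the anchors.

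The 8 libraries came from 4 embryonic stem cell lines, with 2 technical replicates of each. C57BL/6J is the inbred strain of B6, and DBA/2J that of D2. In the congenic line B6-13D2, a stretch of chromosome 13 comes from D2 and the other chromosomes from B6. D2-13B6 is the reciprocal, with a B6 stretch in a D2 genome. One end of the latter interval is given with unlike markers in the sample labels and in the design text, so interval borders were not used here. All lines were grown in medium with serum, LIF and the inhibitors PD0325901 and CHIR99021. Each genotype is 1 line, and the replicates are technical, so every p-value below sets differences between the lines against technical spread within a line.

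Promoters of active genes tend to meet one another in the nucleus, in pairs of neighbouring genes and in larger clusters of housekeeping genes, and such contacts have been described alongside those between promoters and enhancers. Contact frequency falls with distance along the chromosome for any pair of sites, so a promoter pair has to be read beside other pairs of like span. An H3K27ac pull-down also recovers contacts of acetylated sites preferentially, so a count reflects both the contact and the acetylation of its ends, which cannot be told apart from these counts alone.

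Library totals ran from 737955 to 1425304 counts, and the congenic lines were deeper than the parental lines. As a share of all counts, the members made up 16.7 ± 0.52% of B6, 17.2 ± 0.17% of D2, 16.6 ± 0.50% of B6-13D2 and 17.9 ± 0.048% of D2-13B6 libraries (SD, n = 2 per line). Of 10 marker genes of embryonic stem cells, all had a start at an anchor of some loop, with a summed 2488 to 3621 CPM per library over all loops of those anchors. The anchor of Sox2 had no member loop, and those of the other 9 had. For feeder fibroblasts 1 of 8 markers had a start at an anchor (10.3 to 21.3 CPM), for primitive endoderm 1 of 6 (2.80 to 7.47 CPM) and for neuroectoderm 1 of 5 (at least 11.2 CPM), while none of the 6 trophoblast and 5 mesoderm markers did. CPM here means counts per 1e6 of a library's effective size after TMM scaling. One chromosome stood apart: chromosome 11 took 16.1% and 16.2% of the member counts of D2-13B6, while its share in the remaining 6 libraries was 11.6% to 12.2%. Whether that line carries another number of copies of chromosome 11 was not tested.

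The promoter windows printed here were chosen because their loops carry the findings described further on: the strongest member (Actr2 to Rab1a), leading differences between backgrounds (Fam32a and the Abt1 to Btn2a2 pair) and the zinc finger genes of chromosome 13 whose loops were called for the interval. Each window runs from 250 bases before to 50 bases after the start, 5′ to 3′ on the strand of the gene, from RefSeq on GRCm38.p6. Capitals mark GGGCGG, the GC box recognised by SP and KLF factors, and CCGGAAG, the core site of ETS factors, on either strand.
Actr2, chr11:20112902-20113201, minus strand: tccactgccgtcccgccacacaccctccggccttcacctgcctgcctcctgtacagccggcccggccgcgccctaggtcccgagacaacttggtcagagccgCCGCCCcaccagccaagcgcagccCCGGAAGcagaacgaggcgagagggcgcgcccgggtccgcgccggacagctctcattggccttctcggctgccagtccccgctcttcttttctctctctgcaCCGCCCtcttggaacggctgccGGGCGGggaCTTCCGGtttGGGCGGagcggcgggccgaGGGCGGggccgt
Rab1a, chr11:20201162-20201461, plus strand: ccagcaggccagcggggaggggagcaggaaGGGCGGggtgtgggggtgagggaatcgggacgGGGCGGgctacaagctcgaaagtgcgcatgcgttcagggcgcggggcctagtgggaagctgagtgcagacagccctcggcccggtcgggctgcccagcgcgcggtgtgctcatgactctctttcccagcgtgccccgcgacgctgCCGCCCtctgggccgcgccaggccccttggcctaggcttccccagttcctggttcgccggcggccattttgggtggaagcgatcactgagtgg
Fam32a, chr8:72219495-72219794, plus strand: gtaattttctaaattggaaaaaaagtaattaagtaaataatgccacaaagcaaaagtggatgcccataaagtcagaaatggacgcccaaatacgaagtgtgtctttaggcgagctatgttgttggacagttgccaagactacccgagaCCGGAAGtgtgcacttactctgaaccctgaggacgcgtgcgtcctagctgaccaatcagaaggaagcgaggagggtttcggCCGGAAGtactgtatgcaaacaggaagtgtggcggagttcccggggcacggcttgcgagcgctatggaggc
Abt1, chr13:23423817-23424116, minus strand: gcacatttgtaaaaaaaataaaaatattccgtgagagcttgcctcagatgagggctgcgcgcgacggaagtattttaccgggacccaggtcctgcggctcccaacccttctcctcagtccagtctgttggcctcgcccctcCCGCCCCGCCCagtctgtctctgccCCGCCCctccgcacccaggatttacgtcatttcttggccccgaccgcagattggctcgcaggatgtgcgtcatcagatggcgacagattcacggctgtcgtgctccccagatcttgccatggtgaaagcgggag
Btn2a2, chr13:23488808-23489107, minus strand: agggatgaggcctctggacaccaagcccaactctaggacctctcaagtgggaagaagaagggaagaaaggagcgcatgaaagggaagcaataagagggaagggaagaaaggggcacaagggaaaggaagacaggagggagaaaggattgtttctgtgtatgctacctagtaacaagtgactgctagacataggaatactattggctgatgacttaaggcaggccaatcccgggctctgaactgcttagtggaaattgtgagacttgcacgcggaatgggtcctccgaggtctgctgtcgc
Zfp456, chr13:67375714-67376013, minus strand: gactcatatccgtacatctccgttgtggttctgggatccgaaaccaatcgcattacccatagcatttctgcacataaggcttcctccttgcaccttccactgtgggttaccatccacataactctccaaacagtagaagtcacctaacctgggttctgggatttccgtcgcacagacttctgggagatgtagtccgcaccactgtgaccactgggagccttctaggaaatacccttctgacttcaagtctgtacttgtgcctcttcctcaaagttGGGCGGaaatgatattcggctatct
Zfp459, chr13:67421369-67421668, minus strand: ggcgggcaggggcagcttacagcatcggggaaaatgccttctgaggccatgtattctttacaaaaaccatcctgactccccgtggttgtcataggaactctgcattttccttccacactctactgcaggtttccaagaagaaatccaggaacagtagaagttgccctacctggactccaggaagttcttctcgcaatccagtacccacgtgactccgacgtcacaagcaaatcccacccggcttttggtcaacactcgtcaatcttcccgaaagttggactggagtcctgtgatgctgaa
Zfp874a, chr13:67451575-67451874, minus strand: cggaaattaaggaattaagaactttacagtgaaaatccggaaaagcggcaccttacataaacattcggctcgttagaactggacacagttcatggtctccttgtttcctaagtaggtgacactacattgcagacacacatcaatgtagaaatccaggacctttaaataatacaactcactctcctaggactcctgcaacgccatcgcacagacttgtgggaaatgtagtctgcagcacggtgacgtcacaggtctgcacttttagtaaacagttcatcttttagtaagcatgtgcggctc

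The Actr2 window held 5 GC boxes and 2 ETS matches, and the Rab1a window 3 GC boxes. Fam32a had 2 ETS matches and no GC box. Abt1 held 3 GC boxes in which overlapping matches are counted apart, whereas Btn2a2 had neither motif. Among the zinc finger genes, Zfp456 had 1 GC box, and Zfp459 and Zfp874a had neither motif.

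Member anchors as a whole lay at promoters rich in these letters. Windows were matched for 9581 promoters at member anchors and 20150 protein-coding promoters in all, of which 10171 lay at no anchor. Nearly all windows at an anchor were thus those of members, so these shares do not set members apart from other promoters at anchors. GGGCGG was present in 65.8% of the member windows, 47.8% of all windows and 30.4% of the windows that lay at no anchor. CCGGAAG was present in 20.7%, 11.9% and 3.57% of the same sets. TATAAA, the core of the TATA box, ran the other way, with 6.22%, 12.1% and 17.8%. The median number of CpG dinucleotides per window was 21 at member anchors, 14 in all and 5 at no anchor. Longer motifs were rare. A strict NRF1 motif was present in 2.36% of member windows and 1.38% of all, a YY1 motif in 1.78% and 0.938%, and a ZNF143 motif in 0.825% and 0.447%. A strict CTCF motif was found in 0.0209% of member windows and 0.00993% of all. All motifs were searched on both strands with overlaps allowed. Of 7506 tested members with windows at both ends, 4327 (57.6%) had GGGCGG at both and 6986 at either end or both. The share at both was not set against random pairing of ends, so it shows no preference for like partners. These shares describe the promoters and were not tested.

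The members used 8451 anchors with starts of 10251 genes. Most member anchors held 1 gene, and 1692 held more than 1. The median anchor was 10 kb wide, against 5 kb for anchors without a start. The median member spanned 217.5 kb. Counts were concentrated, with 11055 members seen in all 8 libraries and 2083 members represented by a single count in the whole series. A loop was tested where 2 or more libraries each had 5 or more counts, which left 10475 members among 44706 tested loops, and the tested members had a median span of 107.5 kb. An anchor had a median of 6 member loops. The 5 most connected anchors lay on chromosome 10, with 27 to 29 loops each, and held Sgta, Mbd3, Abhd17a, Dazap1 and Csnk1g2 among other genes.

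The strongest member joined Actr2, a subunit of the Arp2/3 actin nucleator, to an anchor with Cep68 and Rab1a, a GTPase of transport from the endoplasmic reticulum (chr11:20105001-20185000 and chr11:20190001-20255000). It held 610 and 440 counts in B6, 596 and 536 in D2, 649 and 974 in B6-13D2, and 1508 and 1593 in D2-13B6, a mean of 952 CPM. The D2-13B6 libraries were the highest, as for chromosome 11 in general. Usp7, a deubiquitinase, to 1810013L24Rik on chromosome 16 followed with 561 CPM, and Npepps to Mrpl45 on chromosome 11 with 536 CPM. Among loops between alternative starts of 1 gene, those of Ccnd3, which encodes cyclin D3 (431 CPM), and Gcnt2, a glycosyltransferase (376 CPM), were the strongest. Of the pluripotency genes, Nanog joined Slc2a3 with 276 CPM, the Pou5f1 anchor joined an anchor with Cdsn with 248 CPM, Dppa4 joined Dppa2 with 163 CPM, and Tet1 joined Slc25a16 with 118 CPM.

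Over all loops, members had more counts than loops with a start at 1 anchor or at neither, at each span. At 20 to 50 kb, members held 21.0 counts per loop per 1e6 library counts (19.2 to 22.3 over the libraries), loops with 1 start 15.1 and loops with none 7.31. At 200 to 500 kb the values were 1.89, 0.951 and 0.565. The ratio of members to loops with 1 start was 1.14, 1.41, 1.62, 1.87 and 1.91 from the shortest to the longest of 5 span ranges, and above 1 in 8 of 8 libraries in each. Among tested loops alone, with all spans together, the median ratio was 1.04, and members were below loops with 1 start in 2 of 8 libraries (13.6 against 13.8 counts per loop in the first B6-13D2 library, and a smaller gap in the second B6 library).

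Much of that gap moved with anchor width. At 50 to 100 kb the anchors of a member spanned a mean of 6.89 pairs of 5 kb bins, against 4.88 for loops with 1 start and 3.11 for loops with none. Per bin pair, the ratio of members to loops with 1 start was 1.04 under 20 kb, where 6 of 8 libraries were above 1, and 1.11, 1.15, 1.27 and 1.31 at the longer spans, where 8 of 8 were. Members also exceeded loops without a start per bin pair, by ratios of 1.36 to 1.63. The order of the classes at spans over 20 kb was thus the same in both measures, while the size of the gap was not. Which anchors were called and how bins were merged may bear on these ratios and was not tested.

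**Figure D1:**
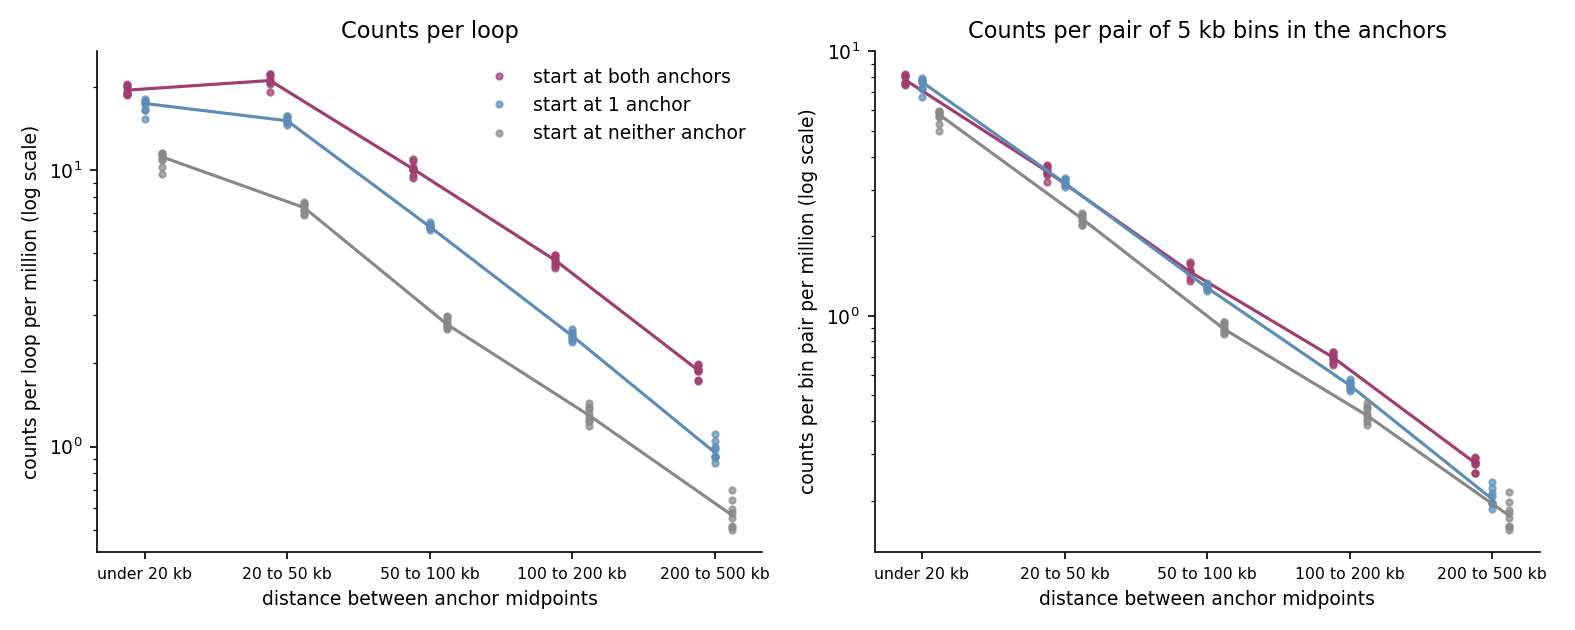
Counts per loop (left) and per pair of 5 kb bins within the anchors (right), per 1e6 library counts on log axes, against the distance between anchor midpoints. Each point is 1 of 8 libraries and lines join the medians; loops with a start at both anchors lie 1.91 times above those with 1 start at 200 to 500 kb per loop, and 1.31 times per bin pair.

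The position of starts inside the anchors was compared over a common set of loops. In 5926 tested members in which both anchors had more than 1 bin and a bin without a start, bin pairs with a start in both bins were set against bin pairs of like distance with a start in neither. Pairs were pooled over loops, and a loop need not supply both kinds, so differences in depth between loops were not held fixed. The ratio of mean counts was 1.03 at 10 to 20 kb, where 6 of 8 libraries were above 1, and 1.12 in the range after it. At 160 kb or more it reached 1.37, with 8 of 8 libraries between 1.26 and 1.51. Bin pairs with 1 start lay between, at 1.14 in that range. The strongest bin pair did not always have a start in both bins. Of 6749 tested members with more than 1 bin in both anchors, it had a start in both bins in 1769, in 1 bin in 3165 and in neither in 1815. Pairs with a start in both bins were also the fewest available. At 160 kb or more, the 5926 members held 6277 of them, 26597 with 1 start and 28209 with none. The counts of strongest pairs have to be read beside these numbers.

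**Figure D2:**
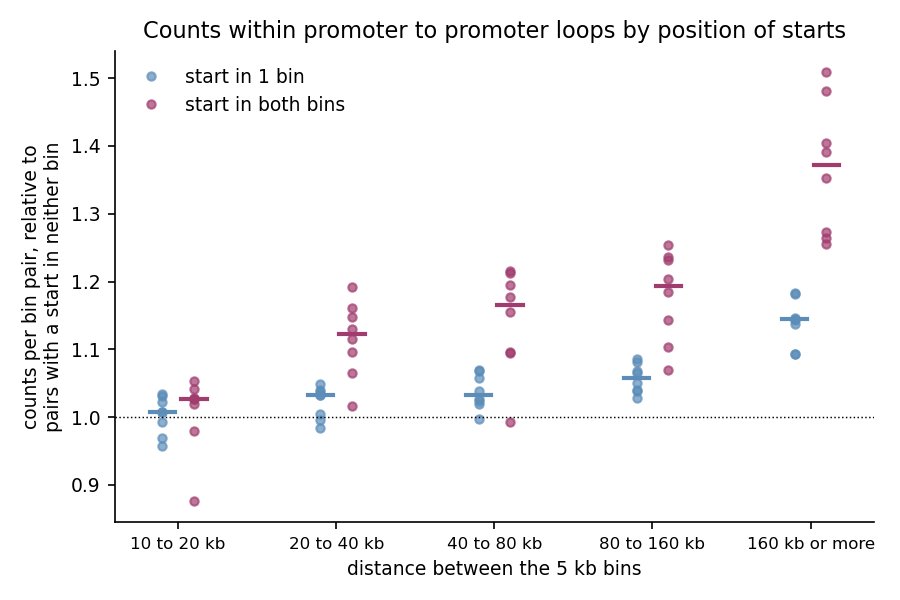
Mean counts per pair of 5 kb bins inside promoter to promoter loops, relative to bin pairs without a start, against the distance between the bins. Points are libraries and bars their medians; pairs with a start in both bins stand at a median of 1.03 at 10 to 20 kb and 1.37 at 160 kb or more.

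Counts varied with the orientation of the genes at intermediate spans. Of 17399 members with 1 gene at each anchor, 8989 joined genes of the same strand, 4351 genes transcribed away from each other and 4059 genes transcribed toward each other. At 20 to 50 kb the loops of genes transcribed apart held 22.4 counts per loop per 1e6 (19.7 to 23.7), those of the same strand 15.7 (14.4 to 16.1) and those of facing genes 12.9 (11.4 to 13.5). The ranges over libraries did not overlap, but all libraries counted the same loops, so they do not measure spread among loops. Under 20 kb the order was another, with 16.5 for genes transcribed apart, 18.3 for the same strand and 19.2 for facing genes, with overlapping ranges over libraries and only 23 facing loops. At 50 to 100 kb the values were 9.62, 6.44 and 6.55, and at 200 to 500 kb they were 1.44, 1.40 and 1.39, where all ranges overlapped. Neither gene length, which sets how much of the stretch between the starts is transcribed, nor anchor width was included.

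The first comparison asks which promoter loops differ with the genetic background, as the mean of D2 and D2-13B6 over the mean of B6 and B6-13D2. The quasi-likelihood test of edgeR, fitted on all 44706 tested loops, called 519 of 10475 members at an adjusted p under 0.05, 338 with more counts in D2 background and 181 with fewer (4.95%, against 8.85% of all tested loops, or 4.3% higher and 4.55% lower). Off chromosome 11 it called 421 of 9216, with 243 higher and 178 lower, against 8.78% of all loops there. In loops with 1 start the share of calls was 7.43%, and in loops with none 11.6%. Among loops of like depth, at a mean of 50 to 100 counts, 17.7% of members were called, 27.6% of loops with 1 start and 40.4% of loops with none (off chromosome 11, 15.7%, 26.1% and 40.6%). Off chromosome 11, 8.1% of members of 20 to 50 kb and 2.44% of those of 200 to 500 kb were called, beside 11.2% and 3.67% of all loops of the same spans.

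The loop with the smallest adjusted p joined Abt1, a factor of basal transcription, to Btn2a2, a butyrophilin (chr13:23420001-23455000 and chr13:23485001-23520000). It held 187 and 133 counts in B6, 52 and 52 in D2, 263 and 352 in B6-13D2, and 83 and 104 in D2-13B6. Every library with a B6 background lay above every library with a D2 background, and the D2 background was lower by a log2 fold change of -1.74 (SE 0.12, adjusted p = 1.54e-45). The change was not shared evenly by the anchors. The other loops of the Btn2a2 anchor differed by -2.14 on the log2 scale, whereas those of the Abt1 anchor differed by 0.44. Of the windows printed above, that of Abt1 held GC boxes and that of Btn2a2 held neither motif.

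Fam32a to Ap1m1, a subunit of the clathrin adaptor AP-1, showed the reverse direction over 20 kb (chr8:72215001-72225000 and chr8:72235001-72245000). Counts were 7 and 6 in B6, 44 and 47 in D2, 8 and 11 in B6-13D2, and 68 and 82 in D2-13B6. The mean was 67.6 ± 6.73 CPM in D2 background and 9.60 ± 0.576 CPM in B6 background (SD, n = 4 each), a log2 fold change of 2.80 (SE 0.24, adjusted p = 8.1e-29). The other loops of both anchors hardly differed, by 0.23 at Fam32a and 0.06 at Ap1m1. The most used pair of 5 kb bins carried 59.3% of this loop's counts and held no start in either bin, so most of the counted contact lay beside the starts.

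Pramef17 to Gm13128, within a cluster of PRAME family genes on chromosome 4 (chr4:143970001-144000000 and chr4:144305001-144345000), was close to absent in B6 background. It had 0 and 0 counts in B6, 2 and 0 in B6-13D2, 39 and 32 in D2, and 37 and 53 in D2-13B6. The summed 161 counts against 2 give a rate ratio of 74.6 (exact 95% interval 20.3 to 622, counting error only). D2 over B6 alone was at least 25.2-fold, with B6 set at 3 counts over its libraries. This is a multigene family, and how read pairs that match several copies were placed is not stated in the sources used here, so the value is uncertain.

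Further loops higher in D2 background joined starts of Glo1, a glyoxalase that detoxifies methylglyoxal, on chromosome 17 (log2 fold change 1.25, SE 0.12), Riok3 and Tmem241 to Rmc1 (1.37, SE 0.13), and Zfp46 to Hnrnpr (1.28, SE 0.13), with adjusted p of 1.03e-23, 1.43e-24 and 2.06e-20. For Glo1 the counts were 68 and 49 in B6, 154 and 141 in D2, 100 and 127 in B6-13D2, and 297 and 268 in D2-13B6. The other loops of its anchors moved alike, by 1.12 and 0.94. For Zfp46, 1 B6 library (85 counts) stood above the other (36 counts) and came close to the D2 background on the CPM scale without reaching it.

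Loops lower in D2 background included Nod1, an intracellular sensor of bacterial peptidoglycan, to Ggct on chromosome 6. Its counts were 28 and 22 in B6, 6 and 3 in D2, 36 and 51 in B6-13D2, and 14 and 8 in D2-13B6 (log2 fold change -2.28, SE 0.28, adjusted p = 6.87e-14). Mid1 to Gm21887 on chromosome X had 13 and 9 counts in B6, 29 and 38 in B6-13D2, 2 and 0 in D2 and 0 and 2 in D2-13B6, with a log2 fold change of -4.17 (SE 0.48, adjusted p = 1.97e-15). Between starts of the zinc finger genes Zfp984 and Zfp981 on chromosome 4 the fold changes were -2.52 (SE 0.29) and -1.07 (SE 0.13). Both belong to a large family of similar copies, with the same limit as above. As for Fam32a, the strongest bin pair held no start for Pramef17 (50.9% of the counts), Mid1 (55.9%), Zfp46 (31.2%), Riok3 (13.2%) and Abt1 (6.69%). For Glo1, Nod1, Zfp984 and Zfp981 it had a start in 1 or both bins.

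**Figure D3:**
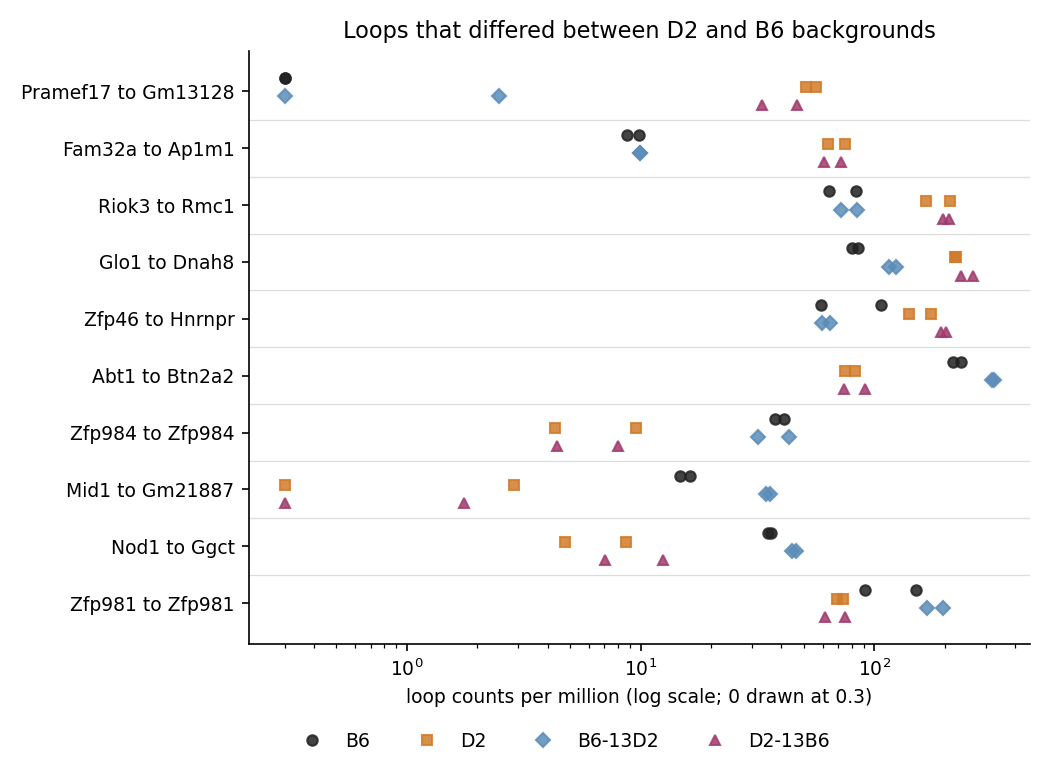
Loop level in CPM (log axis, 0 drawn at 0.3) of the 10 members named for the background effect, 1 point per library. The rows were chosen for libraries that do not overlap between backgrounds, which held for 291 of 421 called members off chromosome 11 (69.1%, against 71.3% of all called loops there). The widest gap is that of Pramef17 to Gm13128.

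Loops within 1 gene or 1 gene family were counted apart. Of 207 tested loops between alternative starts of 1 gene, 33 were called (15.9%), of 320 loops between genes of 1 name family 42 (13.1%), and of the other 9948 members 444 (4.46%), beside 8.85% of all tested loops. Off chromosome 11 the shares were 17.2%, 13.4% and 3.99%, beside 8.78% of all loops, and these differences were not tested. Within genes, Hunk, a kinase, had 16 and 13 counts in B6, 43 and 29 in D2, 12 and 11 in B6-13D2, and 40 and 57 in D2-13B6 (log2 fold change 1.61, SE 0.23, adjusted p = 2.52e-10). At Gcnt2 all 3 loops among its alternative starts were among those with the smallest adjusted p and were lower in D2 background, by -0.67, -0.56 and -0.76 on the log2 scale. Within families, the loop between the aldo-keto reductase genes Akr1b3 and Akr1b8 had 62.2 ± 0.257 CPM in B6 and 61.7 ± 0.22 CPM in B6-13D2, against 128 ± 12.3 CPM in D2 and 162 ± 16.3 CPM in D2-13B6 (SD, n = 2 per line). Its log2 fold change was 1.21, with SE 0.14 and adjusted p = 4.07e-16. Trim6 to Trim12a, in a cluster of tripartite motif genes on chromosome 7, had 9 and 8 counts in B6, 10 and 13 in B6-13D2 and 0 in each of the 4 libraries with a D2 background. Trim34a to Trim12a, which shares the Trim12a anchor, had 3 and 8 counts in B6, 8 and 17 in B6-13D2, 0 and 1 in D2, and 0 and 0 in D2-13B6. These too are genes of 1 family, with the limit on placing read pairs given above.

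Called loops were set beside the other loops of their anchors. Of the 519 members called, 401 had both anchors' other loops differing in the same direction (77.3%, against 45.2% of all tested members), 108 had 1 anchor and 10 neither. Off chromosome 11 it was 311 of 421 (73.9%, against 42.3% of the tested members there), a difference in share that was not tested. The anchor sums themselves were called in the same direction at both anchors for 292 loops, at 1 anchor for 176 and at neither for 51, where 24.8% of all tested anchors were called.

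**Figure D4:**
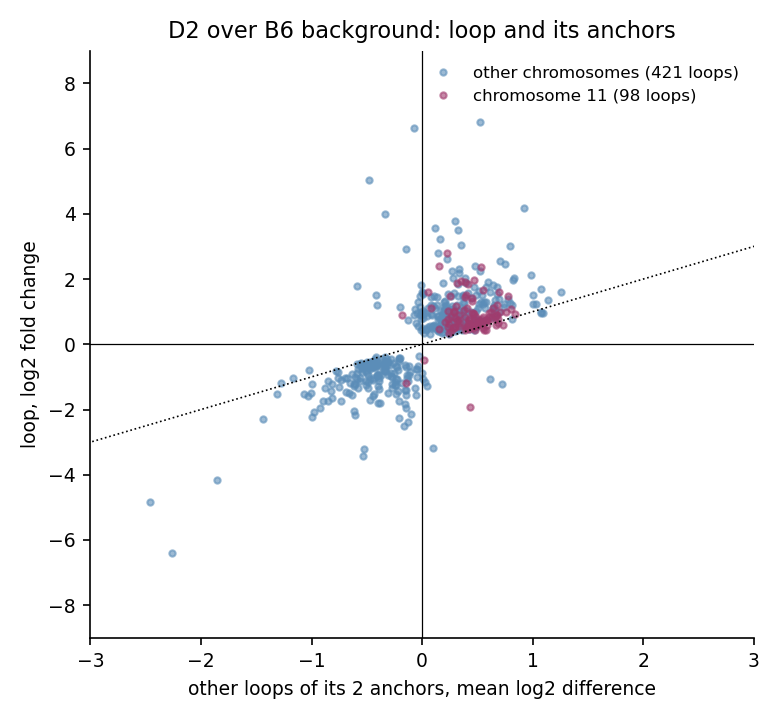
Log2 fold change of each of the 519 members called for the background effect (vertical) against the mean log2 difference of the other loops at its 2 anchors (horizontal), with a dotted line where both are equal. Most points lie in the quadrants of equal sign, and 401 of 519 loops agree in sign with both anchors.

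Between the parental lines alone, D2 against B6, 136 members were called, 83 higher and 53 lower in D2 (1.30%, against 2.65% of all tested loops, or 1.38% higher and 1.27% lower). In 113 of the 136 (83.1%, against 56.0% of all tested members), the congenic pair differed in the same direction, and off chromosome 11 in 109 of 130 (83.8%). Btaf1 and Fgfbp3 to Kif11, the mitotic kinesin Eg5, went another way (chr19:36915001-36930000 and chr19:37375001-37380000, 455 kb apart). It had 59 and 44 counts in B6, 1 and 0 in D2, 0 and 0 in B6-13D2, and 2 and 1 in D2-13B6. Only the B6 libraries had more than 2 counts, although B6-13D2 shares the B6 background outside its interval. The rate in B6 was 96.7 times that in D2 (exact 95% interval 16.97 to 3855) and at least 46.5 times that in B6-13D2 (adjusted p = 1.05e-31), and the interaction was not called (adjusted p = 0.227). One bin pair carried 64.5% of its counts. Whether this is a feature of the whole B6 genotype, interval included, or of that line cannot be told apart with 1 line per genotype.

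The chromosome 13 interval was compared within each background, always as the D2 interval minus the B6 interval. In B6 background (B6-13D2 minus B6), 44 members were called, 34 higher and 10 lower (0.42%, against 0.859% of all tested loops, or 0.537% higher and 0.322% lower). The split was 19 higher and 17 lower when libraries were scaled by their totals alone, and 15 and 11 with the trend on abundance removed. In D2 background (D2 minus D2-13B6) 63 were called, 6 higher and 57 lower (0.601%, against 0.922%, or 0.188% higher and 0.734% lower), but 46 of the 63 lay on chromosome 11 and all 46 were lower. Scaled by totals alone, 12 were higher and 38 lower. Off chromosome 11, 17 of 9216 were called, 6 higher and 11 lower (0.184%, against 0.572% of all loops there). With a scaling factor for each chromosome, 17 members were called in D2 background, 4 higher and 13 lower. Under that scaling 0 of the members on chromosome 11 were called by edgeR and their median log2 fold change moved from -0.48 to -0.02. At an unadjusted p under 0.05, 272 of the 1259 members there passed before that scaling and 89 with it. Averaged over both backgrounds, 51 members were called, 19 higher and 32 lower (0.487%, against 0.986%, or 0.425% higher and 0.561% lower). Of these, 15 lay on chromosome 11, all lower, and 0 of the 15 were also called with that scaling. On chromosome 13 lay 8 of the 51, and 3 of the 8 were also called with it. With chromosome 11 left out of the fit, 18 were higher and 17 lower. Off chromosome 11 the averaged effect called 36 of 9216 (0.391%, against 0.888%). These contrasts use separate libraries in each background, and 5 members were called in both (0.0477%, against 0.105% of all tested loops). The 3 of these on chromosome 11 had opposite directions in the backgrounds, and the 2 off chromosome 11 had the same direction (0.0217% of the members there, against 0.0878% of all loops).

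Zfp456 to Zfp459 on chromosome 13, between KRAB zinc finger genes, was the clearest of those 2 (chr13:67375001-67380000 and chr13:67410001-67440000). It had 1 and 5 counts in B6, 30 and 32 in B6-13D2, 8 and 9 in D2-13B6, and 19 and 28 in D2. All 4 libraries with the D2 interval were above all 4 with the B6 interval, with 34.5 ± 7.93 against 6.11 ± 3.27 CPM (SD, n = 4 each). The log2 fold change was 2.89 (SE 0.49, adjusted p = 6.87e-06) in B6 background, 2.22 (SE 0.39, adjusted p = 1.2e-05) in D2 background and 2.55 (SE 0.31, adjusted p = 1.43e-12) averaged. Without the first B6 library the adjusted p was 0.125 in B6 background, and without the second D2 library it was 0.0693 in D2 background. One bin pair held 62.1% of the counts.

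The neighbouring loop ran in the opposite direction. Zfp459 to Zfp874a (chr13:67410001-67440000 and chr13:67450001-67455000) had 39 and 24 counts in B6, 18 and 19 in B6-13D2, 52 and 57 in D2-13B6, and 16 and 17 in D2. The libraries with the B6 interval were higher without overlap (averaged log2 fold change -1.07, SE 0.21, adjusted p = 0.00039). It was called in B6 background (-1.19, adjusted p = 0.0242) but not in D2 background (-0.95, adjusted p = 0.0933). The Zfp459 anchor, which both loops share, thus had more counts to Zfp456 and fewer to Zfp874a with the D2 interval. Its remaining loops, with each of these taken out in turn, differed by -0.76 and -0.56. Both loops lie in a cluster of similar genes, and how read pairs from the D2 genome were mapped to the reference is not stated, so a mapping difference between alleles was not tested.

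Obox6 to Crxos, homeobox genes of the early embryo on chromosome 7 (chr7:15830001-15870000 and chr7:15880001-15910000), was called in both backgrounds too. Counts were 64 and 51 in B6, 21 and 28 in B6-13D2, 174 and 179 in D2-13B6, and 56 and 42 in D2. The D2 interval was lower by -1.66 (SE 0.26, adjusted p = 3.58e-07) in B6 background and by -1.08 (SE 0.19, adjusted p = 6.38e-06) in D2 background on the log2 scale. The levels of the backgrounds did not line up, however, since D2 with 73.5 ± 9.72 CPM was close to B6 with 81.6 ± 2.40 CPM (SD, n = 2 each) although they carry different intervals. In B6 background the other loops of its anchors differed by -2.39 and -1.02.

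Further members off chromosomes 11 and 13 were called for the averaged interval effect, and none of the 6 named next was called in both backgrounds. Kat2b, an acetyltransferase, to Sgo1, which protects centromeric cohesion, had 85 and 64 counts in B6, 134 and 185 in B6-13D2, 146 and 165 in D2-13B6, and 129 and 127 in D2 (180 ± 16.9 CPM with the D2 interval against 121 ± 19.5 CPM, averaged log2 fold change 0.58, SE 0.12, adjusted p = 0.000556). Cd59b to Cd59a, inhibitors of complement, differed by 1.11 (SE 0.24, adjusted p = 0.00201), and Usp54 to Sec24c by 1.08 (SE 0.25, adjusted p = 0.00416). Lower with the D2 interval were Med26, a Mediator subunit, to Smim7 and Tmem38a (-0.76, SE 0.17, adjusted p = 0.00203), Itgb7 and Rarg to Mfsd5 (-0.71, SE 0.17, adjusted p = 0.00659), and an anchor with Bcl2l12 and Irf3 to one with Bax (-1.37, SE 0.34, adjusted p = 0.0109). Of these 6, the call was lost without 1 library for Cd59b, Usp54, Med26, Itgb7 and Bcl2l12. Without the second D2 library, for example, the adjusted p was 0.0596 for Cd59b to Cd59a, 0.0593 for Usp54 to Sec24c and 0.0736 for Med26 to Smim7. Without the first B6 library it was 0.459 for Itgb7 to Mfsd5 and 0.117 for Bcl2l12 to Bax.

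Other loops were called in a single background. Oscp1 to Lsm10 and Stk40 on chromosome 4 had 11 and 11 counts in B6, 11 and 10 in B6-13D2 and 13 and 10 in D2-13B6, but 0 and 0 in D2. D2-13B6 was at least 4.50-fold higher than D2 (adjusted p = 0.00161), and both libraries of D2 stood apart from the other 6. Cryge to Crygc and Crygd, lens crystallin genes, had 91 and 82 counts in D2 against 64 and 87 in D2-13B6 or 130 ± 0.359 against 66.7 ± 13.6 CPM (log2 fold change 0.96, SE 0.19, adjusted p = 0.000183, and 0.108 without the first D2-13B6 library). Fbxl5 to Bst1 had 41 and 44 counts in B6 against 27 and 25 in B6-13D2, or 61.5 ± 14.6 against 28.0 ± 7.62 CPM (-1.14, SE 0.27, adjusted p = 0.00813), a call lost without the second B6 library (adjusted p = 0.266). The difference between backgrounds was itself called for none of these 3, with adjusted p of 0.0595 for Oscp1, 0.545 for Cryge and 0.286 for Fbxl5.

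**Figure D5:**
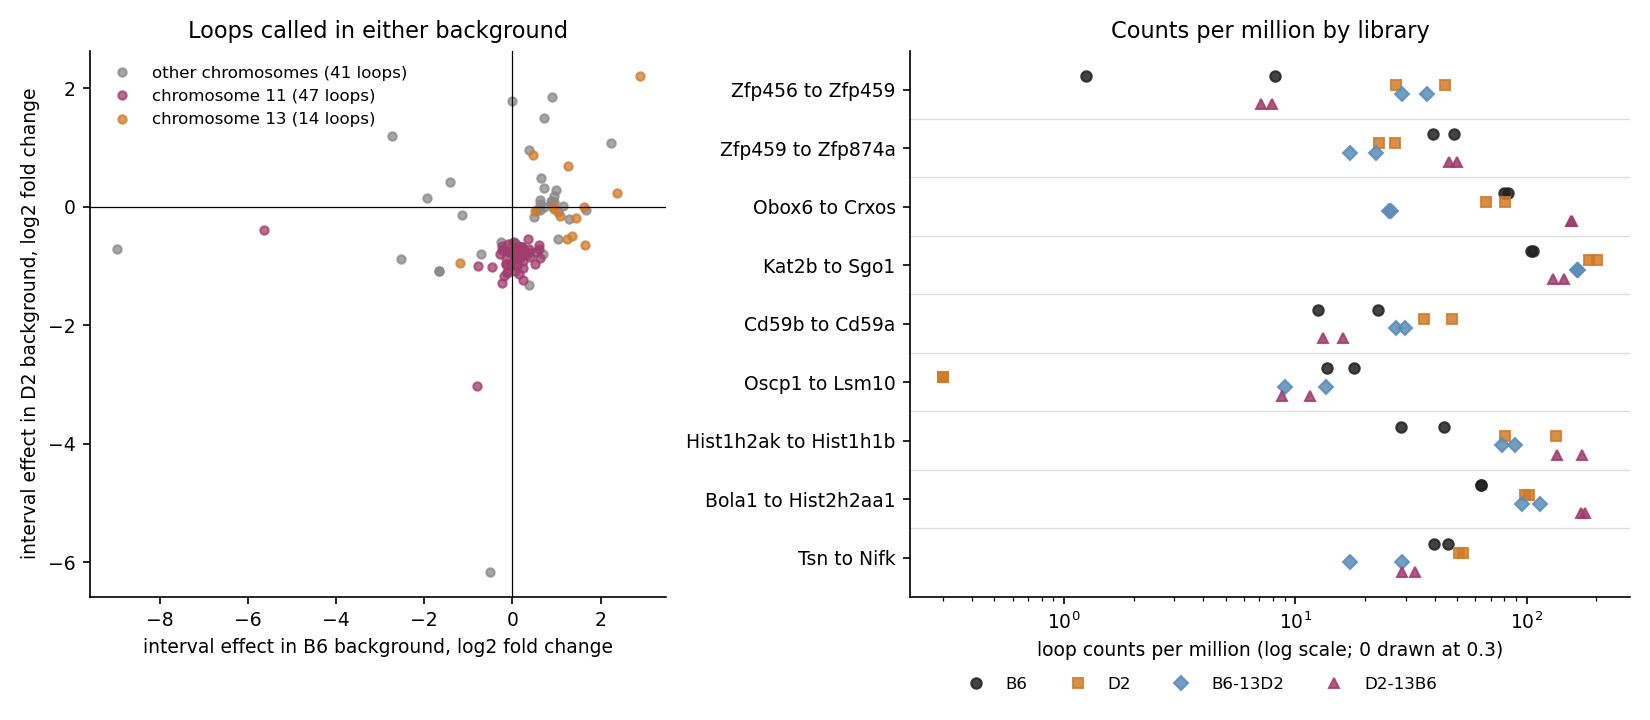
Left, log2 fold change of the interval effect (D2 interval minus B6 interval) in B6 background and in D2 background for members called in either. Right, loop level in CPM by library (log axis, 0 drawn at 0.3) for 9 named loops; Zfp456 to Zfp459 and Zfp459 to Zfp874a separate the intervals without overlap and in opposite directions, while the chromosome 11 loops on the left lie below 0 in D2 background.

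Histone genes sit in dense clusters whose transcripts are made together in S phase. Of 21 members with histone genes at both anchors, 20 were tested, 19 of them on chromosome 13. Many of these loops share an anchor, so they are not separate observations. Their summed level was 266 and 354 CPM in the B6 libraries, 695 and 816 in D2, 704 and 664 in B6-13D2, and 866 and 1108 in D2-13B6. The B6 line was the low one: both of its libraries were below all other 6 in 15 of the 20 loops, which held for 6.34% of all tested members. By the tests, 10 of 20 rose in D2 background and none fell, where 4.3% of all tested loops were called higher (median log2 fold change 0.75, against 0.02 over all tested loops). In B6 background 6 rose with the D2 interval (0.537% of all tested loops), and in D2 background 1 fell (0.734% of all). The difference between the interval effects was called for 6 of 20, all negative (0.552% of all).

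Hist1h2ak to Hist1h1b (chr13:21745001-21770000 and chr13:21775001-21795000) had 23 and 27 counts in B6, 56 and 84 in D2, 63 and 98 in B6-13D2, and 151 and 197 in D2-13B6. The interaction, which takes the effect in B6 background from the effect in D2 background, was -1.78 on the log2 scale (SE 0.30, adjusted p = 4.57e-06). In D2 background alone the adjusted p was 0.118, and 0.00212 with a scaling factor for each chromosome. The histone cluster of chromosome 3 gave -1.51 (SE 0.27, adjusted p = 2.31e-05), with 51 and 39 counts in B6, 71 and 62 in D2, 92 and 106 in B6-13D2, and 192 and 203 in D2-13B6. In both, the B6 libraries lay below and the D2-13B6 libraries above all others on the CPM scale, by a narrow margin for Hist1h2ak, where the higher D2 library had 133 CPM and the lower D2-13B6 library 135 CPM. Because histone genes are near copies of one another, assignment of their reads is uncertain, and the share of cells in S phase was not measured, so its part was not tested.

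The interaction called 40 members in all, 2 positive and 38 negative (0.382%, against 0.606% of all tested loops, or 0.0537% higher and 0.552% lower). On chromosome 11 there were 23 of them. With a scaling factor for each chromosome, 4 of those 23 were called, and the 17 off chromosome 11 were 0.184% of the members there, against 0.424%. Scaled by totals alone, 3 were positive and 16 negative. The 2 positive ones were Tsn to Nifk (1.57, SE 0.40, adjusted p = 0.0238), with 32 and 28 counts in B6, 37 and 32 in D2, 14 and 32 in B6-13D2, and 37 and 33 in D2-13B6, and Gm29666 and Nup50 to Fam118a (3.94, SE 1.06, adjusted p = 0.0372), which had no more than 9 counts in any library. With a scaling factor for each chromosome, Tsn to Nifk gave 1.42 (adjusted p = 0.0696). Both calls were lost without the first B6 library (adjusted p = 0.0517 and 0.118), among others.

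Members at pluripotency genes were counted next. Of 126 tested members with such a gene at either anchor, 3 were called for the background effect and all 3 were higher (2.38%, against 8.85% of all tested loops in either direction and 4.3% higher), a difference in share that was not tested. They were Trim28 to Mzf1 (log2 fold change 0.69, SE 0.16, adjusted p = 0.000322), Nanog to Foxj2 (0.61, SE 0.17, adjusted p = 0.00709) and the Dppa3 and Gdf3 anchor to Nanog (0.55, SE 0.19, adjusted p = 0.0438). For Nanog to Foxj2 the counts were 42 and 32 in B6, 46 and 33 in D2, 31 and 44 in B6-13D2, and 90 and 91 in D2-13B6. These correspond to 52.4 ± 0.12 CPM for B6, 39.1 ± 1.0 CPM for B6-13D2, 59.2 ± 9.7 CPM for D2 and 80.1 ± 0.31 CPM for D2-13B6 (SD, n = 2 per line), so the libraries of D2 itself were close to those of B6. Socs3 to Pgs1, on chromosome 11, was the only one of the 126 called for the averaged interval effect, beside 0.986% of all tested loops (-0.74, SE 0.18, adjusted p = 0.0124), and it was not called with a scaling factor for each chromosome.

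Ribosomal protein genes were at either anchor of 385 tested members, and 13 rose and 6 fell in D2 background (4.94%, against 8.85% of all tested loops and 4.95% of all tested members). Off chromosome 11 it was 5 and 6 of 330 (3.33%, against 8.78% of all loops there). Rps7 to Rnaseh1 fell by 1.07 on the log2 scale (SE 0.15, adjusted p = 6.4e-10), with 81 and 53 counts in B6, 28 and 35 in D2, 77 and 126 in B6-13D2, and 45 and 63 in D2-13B6. Zinc finger genes were at either anchor of 716, with 25 higher and 18 lower (6.01%), and at both anchors of 183, with 9 higher and 11 lower (10.9%), again beside 8.85% of all tested loops. For the averaged interval effect, 4 of those 183 were called, beside 0.986% of all tested loops. Among them was Zfp458 to Zfp65, 457.5 kb apart on chromosome 13. It had 2 and 8 counts in B6-13D2 and 2 and 6 in D2, against 0 and 1 in B6 and 0 and 0 in D2-13B6. This loop passed the count filter only through libraries with the D2 interval, where it was high, and its call rests on few counts. Of 6 tested members with Hox genes and 3 with protocadherin genes, edgeR called 0 for the background effect, and 0 and 2 of them had an unadjusted p under 0.05.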

How the data were processed

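The deposited table gives raw counts of read pairs for each loop in 8 libraries, per the file header, on mm10 (GRCm38) per the submitters' processing notes. Those notes name BWA 0.7.18, SAMtools 1.19.2 and edgeR 3.34.1 without their roles. The loop caller and the treatment of reads that match several places or differ between strains are not given in the sources used here.

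The deposited counts entered a quasi-likelihood fit (edgeR 4.0.16 under R 4.3.3, TMM scaling, 1 group per line) over all 44706 loops that had 5 or more counts in 2 or more libraries. P-values were adjusted over all of these by Benjamini-Hochberg, and SE was derived from the fold change and its F statistic. DESeq2 1.42.0 and other scalings and filters served as alternatives. The fitting code was tested on simulated data. Starts came from the basic transcripts of GENCODE. Positions are printed on GRCm38, counted from 1. Intervals from counts cover counting error only.

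Replicates of a line differed by 1.05 to 1.20 times the variance of counting (chi-square over its degrees of freedom), and none were merged. Members, gene lists and tests were chosen with earlier results of these data known. Named loops are those with the smallest adjusted p per comparison and direction among called loops whose libraries did not overlap (interaction: no such condition), at least 1 Mb apart and off chromosome 11 where D2-13B6 entered, plus the strongest loops and list members by level. Hunk, Gcnt2, Akr1b3, Trim6, Trim34a, Rps7, Zfp458, the averaged interval loops on chromosome 13 and the pluripotency loops called were named after their values were seen.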

Additional observations from a re-analysis of the deposited data

Results flagged for a closer look

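The test of the difference between the interval effects in the D2 and B6 backgrounds picked out 40 promoter loops (0.382% of tested members, against 0.606% of all tested loops), 38 of them negative. On chromosome 11 lay 23 of them, of which 4 were also called with a scaling factor for each chromosome. The loops named for it were Tsn to Nifk, with a difference of 1.57 on the log2 scale (1.42 and no longer called with that scaling), Gm29666 and Nup50 to Fam118a with 3.94, Hist1h2ak to Hist1h1b with -1.78, and Bola1 to Hist2h2aa1, in the histone cluster of chromosome 3, with -1.51. In the last pair the D2-13B6 libraries had the most counts and the B6 libraries the fewest. The low counts of Gm29666 to Fam118a leave its size uncertain (SE 1.06).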

How the results depend on the processing

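The number of promoter loops called depended on the settings, and the values that could be fitted for named loops kept their sign, but some calls were lost: 10 of 40 without the second D2 library, 8 without the first B6 library, 7 with no filter, 5 each without the first D2 or the second D2-13B6 library, and at most 4 in the other settings. DESeq2 gave an adjusted p for 26 of the 40 named, 38 of the 40 could be fitted when the first or the second B6 library was left out, and 39 with at least 10 counts. The averaged interval effect had 19 higher and 32 lower calls, but 18 and 17 with chromosome 11 left out. For the background effect the 519 calls became 116 with DESeq2, 177 with no filter on low counts and 240 at an adjusted p under 0.01. For D2 against B6 the same settings turned 136 into 27, 41 and 61. The interval effect in B6 background, 44 calls, gave 13 with DESeq2, 26 with no filter, 26 with the trend on abundance removed, 28 with the replicate block and 16 at 0.01. In D2 background the 63 calls became 30 with DESeq2, 17 with a scaling factor per chromosome, 15 with chromosome 11 left out and 41 at 0.01. The averaged effect, 51 calls, gave 9, 10 with no filter, 81 with at least 10 counts, 28 per chromosome and 20 at 0.01. The interaction, 40 calls, gave 19 with library totals, 22 with DESeq2, 25 per chromosome, 13 with the trend removed, 15 without chromosome 11 and 20 at 0.01. DESeq2 gave no adjusted p for 96 of the 519, 33 of the 136, 26 of the 44, 22 of the 63, 31 of the 51 and 11 of the 40. Leaving out each library in turn gave 333 to 432 calls for the background effect (lowest without the second D2 library), 40 to 140 for D2 against B6 and 10 to 40 in B6 background (both lowest without the first B6 library), 20 to 66 in D2 background (without the first D2 library), 12 to 67 averaged (without the second D2 library) and 15 to 34 for the interaction (without the second D2-13B6 library). The lone library of a line was then assumed to vary like those of the others. Replicate numbers did not pair the libraries (correlations of -0.044 to 0.0067), and the replicate block gave 468, 122, 55, 42 and 28 calls for the other comparisons in the order background, D2 against B6, D2 background, averaged and interaction. The share of counts in members was 18.1%, 18.8%, 17.7% and 19.003% in B6, D2, B6-13D2 and D2-13B6 over tested loops only, and 14.7%, 15.3%, 14.6% and 15.9% with the 5′ end of each gene only. For D2-13B6 it was 17.97% with spans measured between anchor edges. The ratio of members to loops with 1 start, 1.55 per loop, was 1.04 over tested loops only and 1.08 per pair of bins, a setting chosen after seeing the data. The transcript set, likewise added later, moved no count by over 1.5 times. Of 30920 members, 33.9% were deep enough to test, and 1 line per genotype limits each comparison to these lines.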
